A study of Homo sapiens with 6 samples.

Results

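The TMEM106 genes encode a small family of related transmembrane proteins, and the array measured all 3 members, TMEM106A, TMEM106B and TMEM106C, out of 14884 genes with a named probeset. Each gene was read through its single named probeset. The family was chosen by the measured difference between the groups, since TMEM106A had the largest rise of all named genes. The differences of the 3 members are therefore given as descriptions, without a test. RNA came from U87 cells, an established human glioblastoma line, 96 h after infection with lentivirus. In one group the virus was meant to deplete ZNF768, a zinc finger transcription factor and infected cells were selected (ZNF768 knockdown, 3 arrays). The other group held control cells of the same line (control, 3 arrays), whose control vector the sample labels do not name. Only 1 cell line, 1 time point and an unnamed hairpin were measured, and the labels call the samples biological replicates.

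TMEM106B is a glycoprotein that crosses the membrane once and sits in late endosomes and lysosomes, where it takes part in lysosome size, acidification and transport. It is best known as a genetic modifier of frontotemporal dementia, above all in carriers of mutations in GRN (progranulin), its fragments form filaments in the ageing brain, and SARS-CoV-2 can use it to enter cells. TMEM106A is found at the cell surface, has been tied to the activation of macrophages through MAPK and NF-kB signalling, and holds back enveloped viruses as they leave the cell. TMEM106C is the least studied of the family.

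The promoters of the members are shown because the genes behaved differently after depletion of a transcription factor. Each sequence is the stretch of 250 bases before the gene's start in RefSeq, build GRCh38.p14, plus strand, 5′ to 3′. TMEM106A lies on chromosome 17 (chr17:43211625-43211874), TMEM106B on chromosome 7 (chr7:12211044-12211293) and TMEM106C on chromosome 12 (chr12:47963346-47963595). Capitals mark every match to a searched motif, on either strand.
TMEM106A: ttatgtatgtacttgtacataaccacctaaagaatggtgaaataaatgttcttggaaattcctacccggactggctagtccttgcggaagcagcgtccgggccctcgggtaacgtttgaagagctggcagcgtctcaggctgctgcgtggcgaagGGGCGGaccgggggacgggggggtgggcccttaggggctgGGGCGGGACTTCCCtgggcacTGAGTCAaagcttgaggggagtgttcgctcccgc
TMEM106B: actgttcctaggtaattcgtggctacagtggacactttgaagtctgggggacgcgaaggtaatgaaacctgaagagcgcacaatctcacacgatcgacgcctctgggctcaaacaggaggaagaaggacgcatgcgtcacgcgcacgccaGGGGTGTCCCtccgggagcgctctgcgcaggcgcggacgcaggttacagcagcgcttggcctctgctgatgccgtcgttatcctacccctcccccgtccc
TMEM106C: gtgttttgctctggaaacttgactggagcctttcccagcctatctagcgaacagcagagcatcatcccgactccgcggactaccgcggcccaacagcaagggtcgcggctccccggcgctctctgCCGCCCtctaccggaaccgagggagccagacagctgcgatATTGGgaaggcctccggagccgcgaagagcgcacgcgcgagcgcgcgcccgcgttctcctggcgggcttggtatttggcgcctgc

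The search used TGANTCA for AP-1, GGGCGG for SP1, CACGTG for the E-box, CCAAT, the half-sites GCTGTGTG and CCTCTCTG described for ZNF768 in interspersed repeats, and the NF-kB motif and a p53 half-site by their names. The TMEM106A window held an AP-1 match, TGAGTCA, 34 to 28 bases before the start. It also held an NF-kB match 51 to 42 bases before the start and SP1 matches at 95 to 90 and 55 to 50 bases, and the nearer of these overlaps the NF-kB match. The TMEM106B window held 1 NF-kB match, 100 to 91 bases before the start, and no AP-1 or SP1 match. The TMEM106C window held 1 SP1 match and 1 CCAAT match, both on the minus strand, and no AP-1 or NF-kB match. Of 35116 promoters of the same length, 6.57% held AP-1, 9.96% NF-kB, 42.6% SP1 and 32% CCAAT. None of the 3 windows held either ZNF768 half-site, present in 1.72% and 2.79% of promoters, an E-box (6.34%) or the p53 half-site (5.57%). GC content was 59.2% for TMEM106A, 60.8% for TMEM106B and 66.0% for TMEM106C, against a median of 58.0% over all promoters. These matches are letters in a window, and binding was not measured.

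TMEM106A, TMEM106B and TMEM106C took 3 different courses upon ZNF768 depletion. TMEM106A rose 4.55-fold, TMEM106B differed by less than the spread between its control arrays, and TMEM106C was lower in every depleted array. ZNF768 itself was at 0.388 of its control level (log2 values 7.02, 7.14 and 7.31 in knockdown arrays, against 8.49, 8.54 and 8.54 in control arrays, adjusted p = 0.00015 from limma), so the depletion is seen in all 3 arrays of its group.

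TMEM106A (probeset 16834603) had log2 values of 10.90, 10.86 and 11.03 in ZNF768 knockdown cells, against 8.70, 8.70 and 8.84 in control cells. All knockdown arrays lay above all control arrays, and the lowest knockdown array stood 2.02 above the highest control array. The means were 10.93 ± 0.09 (SD, n = 3) in knockdown cells and 8.74 ± 0.08 (SD, n = 3) in control cells, a log2 difference of 2.19. The spread within either group was thus small beside the difference, and it was ordinary for this array. A smaller SD was found for 58.0% of genes in the knockdown group and for 53% in the control group.

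TMEM106A stood first of 14884 genes in order of rise. CLDN1 (claudin-1, a component of tight junctions) came next with a log2 difference of 2.00, followed by LRRC17 with 1.99, LRGUK and SOX30 each with 1.98 and the circadian transcription factor DBP with 1.97. The first place holds among named genes, since 14 of 37519 probesets without a name rose more, up to a log2 difference of 3.98. It was kept in each of the alternative analyses and when any single array was left out.

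TMEM106B (probeset 17043702) read 10.18, 10.18 and 10.15 in knockdown cells, against 9.98, 10.09 and 10.18 in control cells on the log2 scale. The groups overlapped, because the highest control array reached into the range of the knockdown arrays. The means were 10.17 ± 0.02 (SD, n = 3) in knockdown cells and 10.08 ± 0.10 (SD, n = 3) in control cells, a log2 difference of 0.09 or 1.06-fold. In the order of all genes this difference was larger than that of 59.1% of genes, and the median gene had a log2 difference of 0.04. Leaving out an array moved it between 0.04 and 0.14, so that its size depends on single control arrays.

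TMEM106C (probeset 16750488) read 7.99, 7.86 and 7.94 in knockdown cells, against 8.32, 8.32 and 8.32 in control cells on the log2 scale. Every knockdown array lay below every control array, with a gap of 0.32. The means were 7.93 ± 0.07 (SD, n = 3) in knockdown cells and 8.32 ± 0.004 (SD, n = 3) in control cells, so that TMEM106C was at 0.764 of its control level (log2 difference -0.39). Its control values were closer together than those of most genes, as only 1.96% of genes had a smaller SD in control cells, and this SD is a poor measure of error. A lower difference was found for 13.0% of genes.

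**Figure D1:**
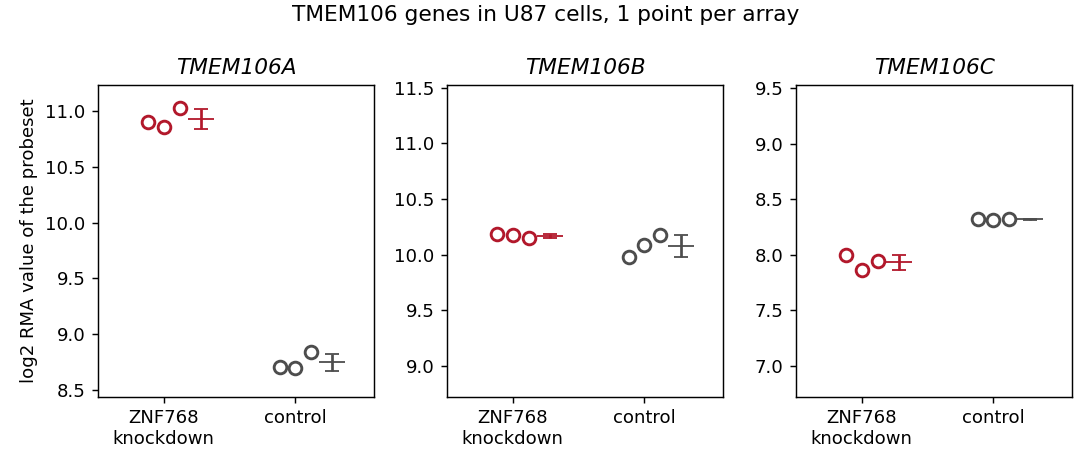
Log2 RMA values (y axis, the same span of 2.8 in each panel) of TMEM106A, TMEM106B and TMEM106C in ZNF768 knockdown and control U87 cells, 1 open point per array, with the mean and SD of 3 arrays beside the points. TMEM106A is clear of its control arrays by 2.02, TMEM106B overlaps them and TMEM106C lies below them by 0.32.

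The log2 difference of TMEM106A exceeded that of TMEM106B by 2.10 and that of TMEM106C by 2.57, and TMEM106B and TMEM106C differed by 0.48. These are gaps between differences. Levels of the members were not set against each other, since each probeset has its own affinity. RNA was taken from whole cultures, in which a change in the share of cells that express a gene and a change in RNA per cell cannot be told apart.

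A further 217 genes have a symbol of TMEM and a number, a name given to many unrelated transmembrane proteins and to some smaller families. Antisense, divergent and readthrough transcripts and pseudogenes are among them. Of the 217 genes, 38 were higher and 47 were lower in knockdown cells at an adjusted p under 0.05 from limma. These are 17.5% and 21.7% of the genes, beside 16.6% higher and 16.8% lower over all named genes, and their median log2 difference was 0.06. TMEM106A had the highest place among these genes and the family together, which follows from the choice of the family by its largest rise. TMEM106B was at place 125 of 220 from the lowest and TMEM106C at place 32. Only TMEM65, a protein of the inner mitochondrial membrane, and TMEM170A, which shapes the endoplasmic reticulum, were also higher by at least 2-fold. TMEM65 read 9.50, 9.34 and 9.40 in knockdown cells, against 8.10, 8.12 and 8.15 in control cells (log2 difference 1.29, standard error (SE) 0.0623, adjusted p = 6.12e-05 from limma). TMEM170A had a log2 difference of 1.19 (adjusted p = 5.73e-05). At the other end 9 genes were lower by at least 2-fold, and TMEM158, first described as a gene induced in RAS-driven senescence, had the lowest difference (-3.14, SE 0.0521, adjusted p = 3.54e-06).

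**Figure D2:**
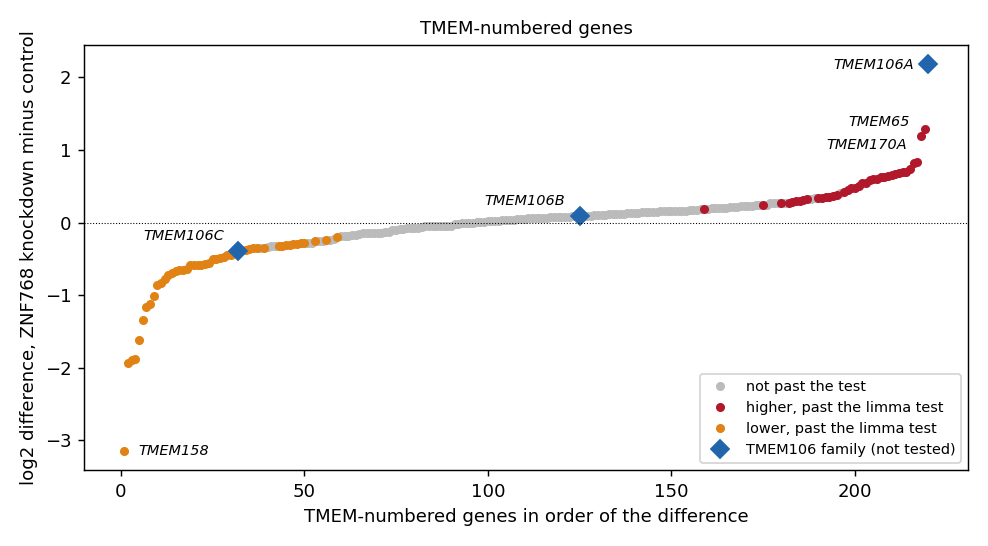
Log2 differences (y axis, ZNF768 knockdown minus control) of the 220 TMEM-numbered genes in order (x axis), coloured by the limma call, with the TMEM106 family as diamonds. TMEM106A at 2.19 stands apart from TMEM65 at 1.29 and TMEM170A at 1.19, while TMEM106B and TMEM106C lie within the run of other genes.

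The neighbours of each member on its chromosome were then read, as the 5 nearest genes with a named probeset on either side. Genes without a named probeset were passed over, so the counts do not cover every gene nearby. Around TMEM106A, 2 of these 10 genes were higher and none lower (20% and 0%), beside 16.6% and 16.8% of all named genes. VAT1, a vesicle membrane protein, had log2 values of 11.19, 11.22 and 11.21 in knockdown cells, against 10.54, 10.45 and 10.41 in control cells (difference 0.74, SE 0.0586, adjusted p = 0.000353 from limma). ETV4, an ETS transcription factor, read 9.87, 9.87 and 9.99 in knockdown cells, against 9.0, 8.93 and 9.09 in control cells (difference 0.90, SE 0.0702, adjusted p = 0.000325). The closest genes with a named probeset on either side, NBR2 (0.07, adjusted p = 0.472) and LINC00910 (0.13, adjusted p = 0.384), did not pass the test.

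Around TMEM106B, none of 10 genes was higher and 2 were lower, where 16.6% and 16.8% of all named genes were. ETV1, a close relative of ETV4, had log2 values of 9.12, 9.07 and 9.11 in knockdown cells, against 10.00, 10.00 and 10.12 in control cells (difference -0.94, SE 0.0598, adjusted p = 0.000162 from limma). The TMEM106A and TMEM106B regions hold related genes in the same order, ETV4 and MEOX1 beside TMEM106A and ETV1 and MEOX2 beside TMEM106B. ETV4 rose and ETV1 fell, while the homeobox genes MEOX1 (0.06, adjusted p = 0.752) and MEOX2 (0.18, adjusted p = 0.359) did not pass the test. MEOX2 read below the array medians (means 5.59 in knockdown and 5.41 in control cells). The comparison of these regions was chosen after the values were seen. The other gene that fell, GLCCI1, had a log2 difference of -0.42 (adjusted p = 0.023), and its call was lost without control replicate 2 or 3 or knockdown replicate 1 or 2 (-0.43 to -0.34, adjusted p 0.0503 to 0.0768).

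Around TMEM106C, 2 of 10 genes were higher and 1 was lower, near those same shares of 16.6% and 16.8%. SENP1, a SUMO protease and the next measured gene, was lower, as TMEM106C was. It read 10.39, 10.39 and 10.48 in knockdown cells, against 10.999, 11.02 and 11.10 in control cells (difference -0.62, SE 0.0604, adjusted p = 0.00076 from limma). RPAP3, a cochaperone in the assembly of RNA polymerase, was higher by 0.37 (adjusted p = 0.00353). ZNF641 was higher by 0.66 (adjusted p = 0.0188), a call lost without control replicate 1 or 2 or knockdown replicate 1 (0.63 to 0.69, adjusted p 0.0561 to 0.0696). HDAC7, on the other side of TMEM106C, had a difference of -0.14 (adjusted p = 0.155).

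**Figure D3:**
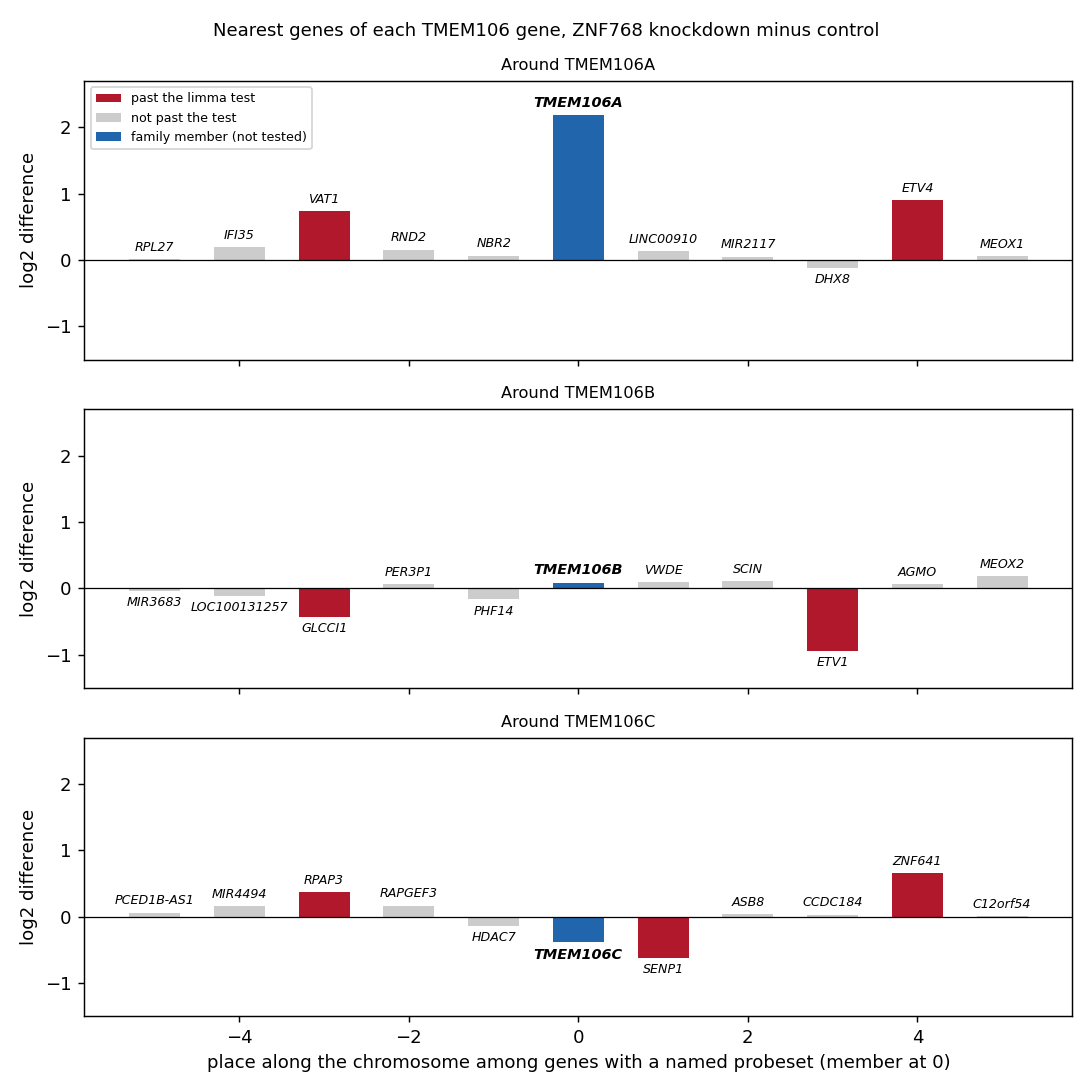
Log2 differences (y axis, ZNF768 knockdown minus control) of TMEM106A, TMEM106B and TMEM106C and of the 5 nearest genes with a named probeset on either side (x axis, place along the chromosome). Bars of tested genes past the limma test are red. ETV4 beside TMEM106A is at 0.90 and ETV1 beside TMEM106B at -0.94.

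Genes linked to TMEM106B by binding, by the lysosome or by frontotemporal dementia were read from lists. GRN, the gene through which TMEM106B is best known as a modifier, had log2 values of 12.73, 12.79 and 12.65 in knockdown cells, against 12.76, 12.75 and 12.70 in control cells, and did not pass the test (difference -0.01, adjusted p = 0.9 from limma). CHMP2B, an ESCRT-III subunit that binds TMEM106B, read 10.48, 10.50 and 10.40 in knockdown cells, against 9.81, 9.90 and 9.81 in control cells (difference 0.62, SE 0.0604, adjusted p = 0.000778). Thus CHMP2B rose and GRN did not pass the test. C9orf72, another gene of the frontotemporal dementia list, did not pass it either (difference 0.02, adjusted p = 0.925). The lysosomal protease cathepsin D (CTSD) rose by 0.27 (adjusted p = 0.0118), and MAP6, a microtubule-associated partner in dendrites, had a difference of 0.11 (adjusted p = 0.317). Of 16 measured genes of this list 5 were higher and 2 were lower (31.25% and 12.5%, beside 16.6% and 16.8% over all named genes), with a median of 0.07. Besides CHMP2B and CTSD, the autophagy receptors OPTN (1.23, adjusted p = 5.88e-05) and SQSTM1 (0.37, adjusted p = 0.00357) rose. CCNF, cyclin F, was lower (-0.75, adjusted p = 0.00032), and PSAP, whose product prosaposin travels with progranulin, was lower too (-0.73, adjusted p = 0.000628). TARDBP was among the 5 with 0.29 (adjusted p = 0.0259), a call lost without any one control array or knockdown replicate 1 or 2 (0.24 to 0.30, adjusted p 0.0602 to 0.0722).

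TMEM106B, at 0.09, lay among lysosomal genes that moved both ways. Of 23 measured genes of the lysosomal membrane and lumen 10 were higher and 5 lower (43.5% and 21.7%, beside 16.6% and 16.8% over all named genes), with a median log2 difference of 0.05. ATP13A2, a lysosomal polyamine transporter, was higher by 0.55 (adjusted p = 0.000872 from limma), MITF, a transcription factor of lysosomal genes, by 0.53 (adjusted p = 0.00541) and the membrane protein TMEM192 by 0.50 (adjusted p = 0.00305). Beside PSAP, the largest falls were those of the cation channel TPCN2 (-0.64, adjusted p = 0.000641) and of TFE3 (-0.59, adjusted p = 0.000898), a relative of MITF. No gene of the proton pump, which TMEM106B binds, has a probeset named here.

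TMEM106A has been studied in macrophages, so markers of activation and of myeloid cells were read beside it. Of 23 listed genes of macrophage activation 8 were measured. The listed HLA genes, CD40, CD74, CIITA, IL1B, IL6 and NOS2 had no named probeset. Of the 8 measured genes 2 were higher and 1 lower (median 0.03). These shares of 25% and 12.5% lie near the 16.6% and 16.8% of all named genes for a list of this size. CD80 had log2 values of 5.32, 5.13 and 5.37 in knockdown cells, against 5.16, 5.27 and 5.49 in control cells (adjusted p = 0.854 from limma), and CD86 had a difference of 0.05 (adjusted p = 0.797). These costimulatory molecules, used as readouts of TMEM106A in macrophages, thus overlapped between the groups. Both read low in these cells, so the overlap says little. CD80 lay near the lower quartile of the arrays (5.17 to 5.20), and CD86 (means 5.99 and 5.93) lay below the array medians. The chemokine CCL2 was higher by 0.98 (adjusted p = 0.00021) and TNF by 0.43 (adjusted p = 0.00304). CXCL10 was lower with -0.38 (adjusted p = 0.0365), a call lost without control replicate 2 or 3 or knockdown replicate 2 or 3 (-0.38 to -0.30, adjusted p 0.0903 to 0.114). It read below the lower quartile of the arrays in both groups (means 4.50 in knockdown and 4.88 in control cells). The listed myeloid markers PTPRC, ITGAM, AIF1 and FCER1G had no named probeset. Of 8 measured myeloid markers none was higher and 3 were lower (median -0.01), or 0% and 37.5%, beside 16.6% and 16.8% over all named genes. Their summed signal was 10.50 to 10.59 in knockdown arrays, against 12.90 to 12.93 in control arrays on the log2 scale, and most of it came from CD68. Without CD68 it was 9.41 to 9.60 in knockdown arrays, against 9.90 to 9.95 in control arrays. CD68, a lysosomal glycoprotein of macrophages, read 9.59, 9.54 and 9.73 in knockdown cells, against 12.73, 12.74 and 12.70 in control cells, and so moved opposite to TMEM106A. EVI2B, a leukocyte membrane protein, was lower as well (-2.28, adjusted p = 4.7e-05), whereas CD14, TYROBP and SPI1 did not pass the test. CSF1R was lower with -0.50 (adjusted p = 0.0451), a call lost without any one control array or knockdown replicate 3 (-0.56 to -0.46, adjusted p 0.0749 to 0.121). The part of these markers in the rise of TMEM106A was not tested.

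TMEM106A also holds back budding virus and TMEM106B admits one, and some genes of these roles were higher and others lower or not past the test. Of 13 measured restriction factors of enveloped viruses 3 were higher and 2 lower (median 0.12), or 23.1% and 15.4%, beside 16.6% and 16.8% over all named genes. IFITM2, which blocks fusion of viral and cell membranes, read 9.51, 9.38 and 9.62 in knockdown cells, against 8.43, 8.52 and 8.70 in control cells (difference 0.95, SE 0.0977, adjusted p = 0.000922 from limma). IFITM3 was higher by 0.41 (adjusted p = 0.009) and IFITM1 by 0.38 (adjusted p = 0.0419), though IFITM genes are close copies whose probes may not be told apart. The call of IFITM1 was lost without any one control array or knockdown replicate 2 or 3 (0.29 to 0.41, adjusted p 0.0788 to 0.112). BST2, the tetherin that holds virions at the surface, had a difference of 0.02 (adjusted p = 0.843). BST2 read below the array medians (means 5.61 in knockdown and 5.59 in control cells), so its small difference says little. SLFN11 (-1.16, adjusted p = 0.00054) and SERINC5 (-0.67, adjusted p = 0.000333) were lower. Of 10 measured coronavirus entry factors none was higher at this threshold and 3 were lower (median -0.15), against 16.6% higher and 16.8% lower over all named genes. The 3 were KREMEN1 with -0.98 (adjusted p = 0.00031), NRP1 with -0.79 (adjusted p = 0.000224) and AXL with -0.68 (adjusted p = 0.000287).

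**Figure D4:**
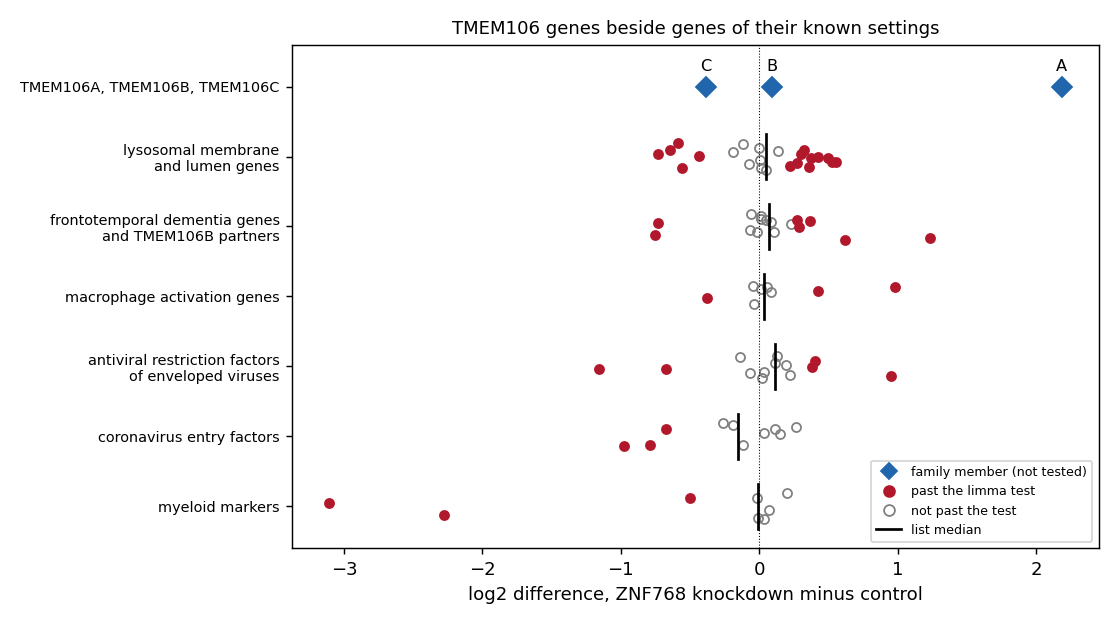
Log2 differences (x axis, ZNF768 knockdown minus control) of the TMEM106 family (diamonds marked A, B and C) and of the measured genes of 6 lists, with filled points for genes past the limma test and a bar at each list's median. TMEM106A at 2.19 lies above every gene of these lists, which follows from the choice of the family by its largest rise. The lowest of the listed genes is CD68 at -3.11. OPTN at 1.23 is the highest of the listed genes.

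The genes most like each member across the arrays were ranked by Pearson's r over the 6 log2 values. For TMEM106A and TMEM106C r mostly follows the difference between the groups. Nearest to TMEM106A were the kinase NEK4 and LINC01278, SPATA4, GFPT1 and the atypical MAP kinase MAPK6, with r from 0.9995 to 0.9999. Their log2 differences were 0.61 to 1.52. Nearest to TMEM106C were SENP3-EIF4A1, a readthrough gene that shares sequence with EIF4A1, and RRM1, TCF19, ABHD15 and GTSE1, with r of 0.9990 to 0.9995. RRM1, the large subunit of ribonucleotide reductase, had a log2 difference of -1.0 and GTSE1, a microtubule-binding protein of dividing cells, of -1.60, against -0.39 for TMEM106C. Nearest to TMEM106B were PISD, MRPL21, LINC00379, RGS5 and FBXO44, with r of 0.988 to 0.997 and differences of 0.05 to 0.18. The groups overlapped for each of these genes, and none passed the test. Here r mostly follows the spread between control arrays. TMEM106B read 9.98, 10.09 and 10.18 in control replicates 1 to 3, and PISD 8.20, 8.28 and 8.32. LINC00379 read below the lower quartile of the arrays.

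The arrays themselves were alike, with medians of 6.398 to 6.44 on the log2 scale and correlations across probesets of 0.992 to 0.994 within groups and 0.977 to 0.980 between them. Over all named genes 2466 were higher and 2501 lower at an adjusted p under 0.05 from limma. This balance depended on scaling, with 2865 higher and 2232 lower when arrays were centred on housekeeping genes, and 2246 higher and 2704 lower after cyclic loess. Markers of the line were read as a check of the label. VIM, CD44, FN1 and NES read above the array medians in both groups, with means of 11.76, 11.09, 13.54 and 8.23 in control cells. These were the 4 of 9 measured markers lower in knockdown cells, FN1 the most (-2.06), and none was higher. The shares are 44.4% lower and 0% higher, beside 16.8% and 16.6% over all named genes. The levels, rather than these differences, bear on the label. Of the glial markers, S100B, AQP4 and SOX2 read below the array medians in both groups and GFAP and OLIG2 above them, and none of these passed the test.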

How the data were processed

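Gene expression was measured on 1-colour Affymetrix Human Gene 2.0 ST arrays, 3 of ZNF768 knockdown and 3 of control U87 cells. The authors deposited log2 values per probeset, made with oligo by RMA (Robust Multichip Average), a method of background correction, normalization between arrays and probe summary. Versions are not given in the sources used here. Scanner files and scan dates were not analysed here, and the number of arrays limits the precision.

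Of 53617 probesets 16098 carried 1 gene symbol in the platform's table, updated through Entrez identifiers (16098 matched), and 37519 were unnamed here. The probeset with the highest mean over the arrays stood for each of 14884 genes. Groups were compared with limma 3.58.1 in R 4.3.3 (lmFit and eBayes, default settings, two-sided). P-values were adjusted by Benjamini-Hochberg across every probeset, and adjusted p under 0.05 was called. The procedure was tested on simulated data. P-values set the difference between the groups against the spread between these samples, with variances moderated across all probesets.

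Members and lists were chosen with earlier results of these data known. Named genes were the members, ZNF768, the 5 next rises, 5 neighbours on either side, the 5 most correlated genes per member, stated partners, and the largest changes of each list, of which those not needed for a comparison were left out. Lists of housekeeping and glioblastoma line markers served centring and the check of the label. Protein sequences were not used here. Alternatives were cyclic loess, centring on housekeeping genes, leaving out dim probesets, a fit of named probesets alone, averaging probesets per gene, trend and robust variances, array weights, a replicate block, a stricter threshold and each array left out.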

Additional observations from a re-analysis of the deposited data

How the results depend on the processing

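The log2 differences of TMEM106A, TMEM106B and TMEM106C kept their direction under all alternatives. TMEM106A was 2.16 with cyclic loess and 2.22 centred on housekeeping genes, TMEM106B 0.07 and 0.13, and TMEM106C -0.41 and -0.35. Leaving out an array gave 2.13 to 2.23 for TMEM106A, 0.04 to 0.14 for TMEM106B and -0.42 to -0.35 for TMEM106C. Over all genes 1873 to 2113 were then higher and 1998 to 2271 lower, and over the genes of all lists, where 60 were higher and 71 lower with all arrays, 48 to 53 and 57 to 64. With an adjusted p under 0.01, 1506 of all genes and 37 listed genes were higher and 1796 and 51 lower. Listed genes were 70 higher and 64 lower centred on housekeeping genes, and 56 higher and 78 lower with cyclic loess. Centring on housekeeping genes, leaving out dim probesets or fitting only named probesets brought 2 coronavirus entry factors past the test as higher (FURIN and ASGR1), where none was. Of 5 measured housekeeping genes none was higher and 2 were lower (PPIA and TBP), and 0 to 2 were lower when an array was left out. No pairing by replicate number was seen in the values, as the deviations of same-numbered arrays correlated at -0.068, -0.0212 and 0.0218. Whether the samples were set up in pairs cannot be told from these correlations. With the replicate block 1865 genes were higher and 2029 lower, and 3 genes of the frontotemporal dementia list in place of 5 (CTSD and TARDBP were lost). No scanner values were analysed, so the background of the probesets is not known.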
